A study of Mus musculus with 32 samples.

Results

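Interleukins are small secreted proteins through which immune cells instruct one another, and each acts through a receptor built from 1 or more membrane chains. The genes described here are the rows of the deposited table whose symbol begins with Il and a digit, without the interleukin 1 ligands, their main receptor chains and a few further rows that the selection rule left out. The rule kept 37 of 46 such rows, in a table of 17586 genes. They comprise 28 receptor chains, 8 cytokines (Il10, Il6, Il7, Il15, Il16, Il21, Il1f5 and Il1f9) and 1 enzyme, Il4i1, an amino acid oxidase that is an interleukin gene by symbol only. The set was named for genes outside the interleukin 1 family, but 7 of the 37 rows (Il1f5, Il1f9, Il18r1, Il18rap, Il1rl1, Il1rapl1 and Il1rapl2) belong to that family, so the name holds for 30. Il12a, Il12b, Il23a, Il34 and Il27 have no row in the deposited table, so nothing can be said of them here.

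Interleukin receptors pass their signal mainly through paired chains. The shared gamma chain, Il2rg, serves the receptors for interleukins 2, 4, 7, 9, 15 and 21, and the shared chain gp130, encoded by Il6st, serves interleukin 6, interleukin 11 and related cytokines. Most of these receptors act through JAK kinases and STAT transcription factors, which SOCS proteins restrain. In brain tumours, microglia, the resident macrophages of the brain, stand beside macrophages that arrive from the blood, and interleukins 6 and 10 are among the signals studied in both.

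The 32 libraries fall into 4 sorted mouse brain populations of 8. Normal microglia came from mice without a graft or a tumour, 4 libraries from C57BL/6J mice (experiment 1) and 4 from Pep3/CD45.1 mice (experiment 2). The other populations (tumour microglia, and macrophages labelled differentiated or undifferentiated) were taken from chimeras with tumours grown in the brain from GL-261, a glioma line of the mouse. In these the graft was Pep3 into a C57BL/6J recipient or C57BL/6J, labelled WT, into a Pep3/CD45.1 recipient, with 4 libraries of each kind in every population. Tumour microglia of C57BL/6J recipients belong to experiment 4 and those of Pep3/CD45.1 recipients to experiment 3, while both macrophage populations have the reverse. Tumour, grafting and experiment therefore cannot be told apart when tumour microglia are set against normal microglia. Among the tumour populations, experiment and recipient strain cross, so each average over strains holds both experiments equally. The sources used here give no gates. Whether each library is its own animal is not stated, so a p-value reflects only how these libraries vary, which may be technical.

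The deposited values are scores from -6.5 to 6.92 with a mean of 0 for each gene, and their scale was not stated. A score shows whether a gene was high or low in a library relative to its own mean, so scores of different genes cannot be ranked as levels and no fold change can be given. Depth is unknown. In bulk samples, fewer cells of a type and less RNA per cell cannot be told apart. The table had lost 11 sample directions, and 9 libraries kept under 50% of their own variation (normal microglia 1, 10, 18 and 26, tumour microglia 27, differentiated macrophages 28 and 31, undifferentiated macrophages 8 and 29). The populations carried their names: all 6 microglia markers (such as P2ry12 and Tmem119) were lower, and all 6 markers of blood-derived macrophages (such as Ccr2 and Itga4) higher, in each macrophage population than in tumour microglia. Differences below are in score units, fitted with limma over all genes, and a gene was called at a Benjamini-Hochberg adjusted p below 0.05.

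The bases just before the start of 4 of these genes are shown because their scores carry the main patterns below: Il2rg and Il6ra, which moved oppositely in tumour microglia, and Il31ra and Il5ra, which were both low there and high in macrophages. Each line gives 250 bases ending at the base before the RefSeq transcript start in GRCm38.p6, a later build than the mm9 of the files, and all 4 lie on the minus strand. They are chrX:101268256-101268505 for Il2rg, chr3:89913197-89913446 for Il6ra, chr13:112580663-112580912 for Il31ra and chr6:106749038-106749287 for Il5ra. Capitals mark the letters TTCNNNGAA, the core that STAT factors are known to bind.
Il2rg: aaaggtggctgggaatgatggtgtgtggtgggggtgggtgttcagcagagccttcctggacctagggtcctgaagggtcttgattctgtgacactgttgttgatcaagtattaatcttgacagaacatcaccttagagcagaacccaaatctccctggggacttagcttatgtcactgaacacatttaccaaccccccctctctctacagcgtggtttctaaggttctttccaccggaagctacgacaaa
Il6ra: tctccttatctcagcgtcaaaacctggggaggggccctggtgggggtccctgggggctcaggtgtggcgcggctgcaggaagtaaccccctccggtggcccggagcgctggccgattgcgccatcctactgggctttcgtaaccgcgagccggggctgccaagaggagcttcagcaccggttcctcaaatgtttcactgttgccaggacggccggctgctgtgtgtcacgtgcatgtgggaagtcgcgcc
Il31ra: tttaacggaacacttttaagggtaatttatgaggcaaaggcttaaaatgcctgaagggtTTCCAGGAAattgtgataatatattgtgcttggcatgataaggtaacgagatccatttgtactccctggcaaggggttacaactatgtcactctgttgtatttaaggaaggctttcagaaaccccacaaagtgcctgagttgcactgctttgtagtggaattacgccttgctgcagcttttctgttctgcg
Il5ra: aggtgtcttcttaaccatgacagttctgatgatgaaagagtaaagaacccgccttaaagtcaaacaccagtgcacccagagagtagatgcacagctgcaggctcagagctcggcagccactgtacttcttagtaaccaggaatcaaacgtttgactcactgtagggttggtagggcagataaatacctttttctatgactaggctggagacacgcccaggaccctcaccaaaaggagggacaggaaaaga
RefSeq windows were found for 28 of the 37 genes, 36 windows in all. TTCNNNGAA, read on both strands, was in 5 of these (13.9%, at Il18r1, Il1f5, Il1f9, Il31ra and Il7r), against 7.02% of all 32851 windows. In Il31ra it begins 191 bases before the start. GAGGAAG, a core bound by the myeloid factor PU.1, was in 6 (16.7%, at Il11ra1, Il15ra, Il18r1, Il18rap, Il1rapl1 and Il4i1) against 10.6%. The interferon response core, searched as GAAA, 2 free bases and GAAA, was in 0 of the 36 against 2.98%. A form of it without the last A, GAAANNGAA, was searched after those results were seen and was in 1 window (2.78%, at Il15ra) against 7.13%. These are letter matches only.

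Between tumour and normal microglia, Il2rg stood out. This gene for the shared gamma chain scored -2.66, -2.27 and -1.26 (lowest, median and highest of 8 libraries) in normal microglia and -0.866, 0.754 and 1.73 in tumour microglia, so the groups did not overlap. The difference was 3.11 ± 0.41 (SE, limma adjusted p = 7.01e-05, 8 libraries a group), and 0.131% of all genes had a larger one in size. It was 2.08 ± 0.71 within C57BL/6J and 4.13 ± 0.82 within Pep3/CD45.1 (limma adjusted p = 0.2 and 0.0021), and the call was kept when any single library was left out. Without all 9 low-kept libraries it was 1.48 and not called (limma adjusted p = 0.555, 6 residual degrees of freedom), where 0 of all 17586 genes were called. With the covariates also dropped it was 2.76 (limma adjusted p = 0.0125). The macrophages lay at the level of tumour microglia, at -0.384, 0.679 and 1.99 in differentiated and 0.121, 0.613 and 1.81 in undifferentiated cells.

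Il2rg was the only member called higher of the 37, where 4.66% of all genes were. The call was lower for 8 members, where 12% of all genes were, and 16.7% of all genes were called in either direction. Il2rg and Il6ra were the 2 members whose libraries did not overlap, against 1.77% of all genes. The median difference of the 37 was -0.41, against -0.25 over all genes.

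The 8 lower genes were 6 receptor chains, the cytokine Il21 and the interleukin 1 family row Il1f5. Il6ra, the chain that binds interleukin 6, scored 0.731, 1.67 and 2.09 in normal and -0.351, 0.487 and 0.707 in tumour microglia, without overlap (-1.17 ± 0.33, limma adjusted p = 0.0194). Il31ra, which pairs with the oncostatin M receptor, had a lowest, median and highest score of -2.07, 0.141 and 1.11 against -3.25, -1.38 and -0.671 (-1.87 ± 0.44, limma adjusted p = 0.00646). Il5ra, the interleukin 5 chain of eosinophils and some B cells, had -0.95, 0.187 and 0.89 against -2.28, -1.27 and 0.0237 (-1.74 ± 0.38, limma adjusted p = 0.00416). In these last genes the groups overlapped through a few libraries. Il21, a cytokine known from T cells, was lower by a similar amount (-1.61 ± 0.40), as were Il1rapl2 (-1.25), Il1f5 (-1.23), Il1rapl1 (-1.10) and Il11ra1 (-0.92), all with limma adjusted p between 0.0085 and 0.0483.

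Single libraries decided most of the lower calls. Their number fell from 8 to 0 without normal microglia 1 or 18 or without tumour microglia 27. It was 1 without normal microglia 10, and 5 without normal microglia 9 or without tumour microglia 11, 14 or 30. Without normal microglia 2 there were 4 lower calls. Of these, 3 were among the 8, and the other was Il6st (-1.11, limma adjusted p = 0.0249). Il6ra lost its call without normal microglia 1, 2, 18 or 26 or tumour microglia 27, at -0.86, -0.91, -1.19, -1.19 and -1.13. A lost call did not always mean a smaller difference. Without normal microglia 1, Il1rapl1, Il5ra, Il1f5 and Il11ra1 had -1.74, -1.75, -1.27 and -1.18. Il21, Il31ra and Il1rapl2 had -1.59, -1.56 and -0.89 there. All-gene counts were not made for the fits leaving out 1 library. Without all 9 low-kept libraries 0 of the 8, and 0 of all 17586 genes, were called, while Il6ra, Il1f5 and Il21 had differences of -2.07, -2.41 and -2.16.

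The interleukin 6 gene itself did not pass. Il6 scored -1.56, -0.799 and -0.0626 in normal and -0.453, 0.195 and 0.789 in tumour microglia (1.06 ± 0.37, limma adjusted p = 0.0508). Leaving out any 1 of normal microglia 9, 18 or 25 or tumour microglia 11 or 30 gave a higher call for Il6. So did leaving out undifferentiated macrophages 29 or differentiated macrophages 31 (limma adjusted p from 0.018 to 0.0487 over these fits). Il15, which supports natural killer cells, gave 1.28 ± 0.54 (limma adjusted p = 0.104). It was called without normal microglia 18 or without tumour microglia 27 (2.59 and 2.04). Subtracting each library's median over all genes, which moves the all-gene median of -0.25 to about 0, gave 3 higher and 4 lower members: Il15 and Il6 joined Il2rg (1.52 and 1.31, limma adjusted p = 0.0464 and 0.0107), and Il6ra fell short (-0.92, limma adjusted p = 0.0572).

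**Figure D1:**
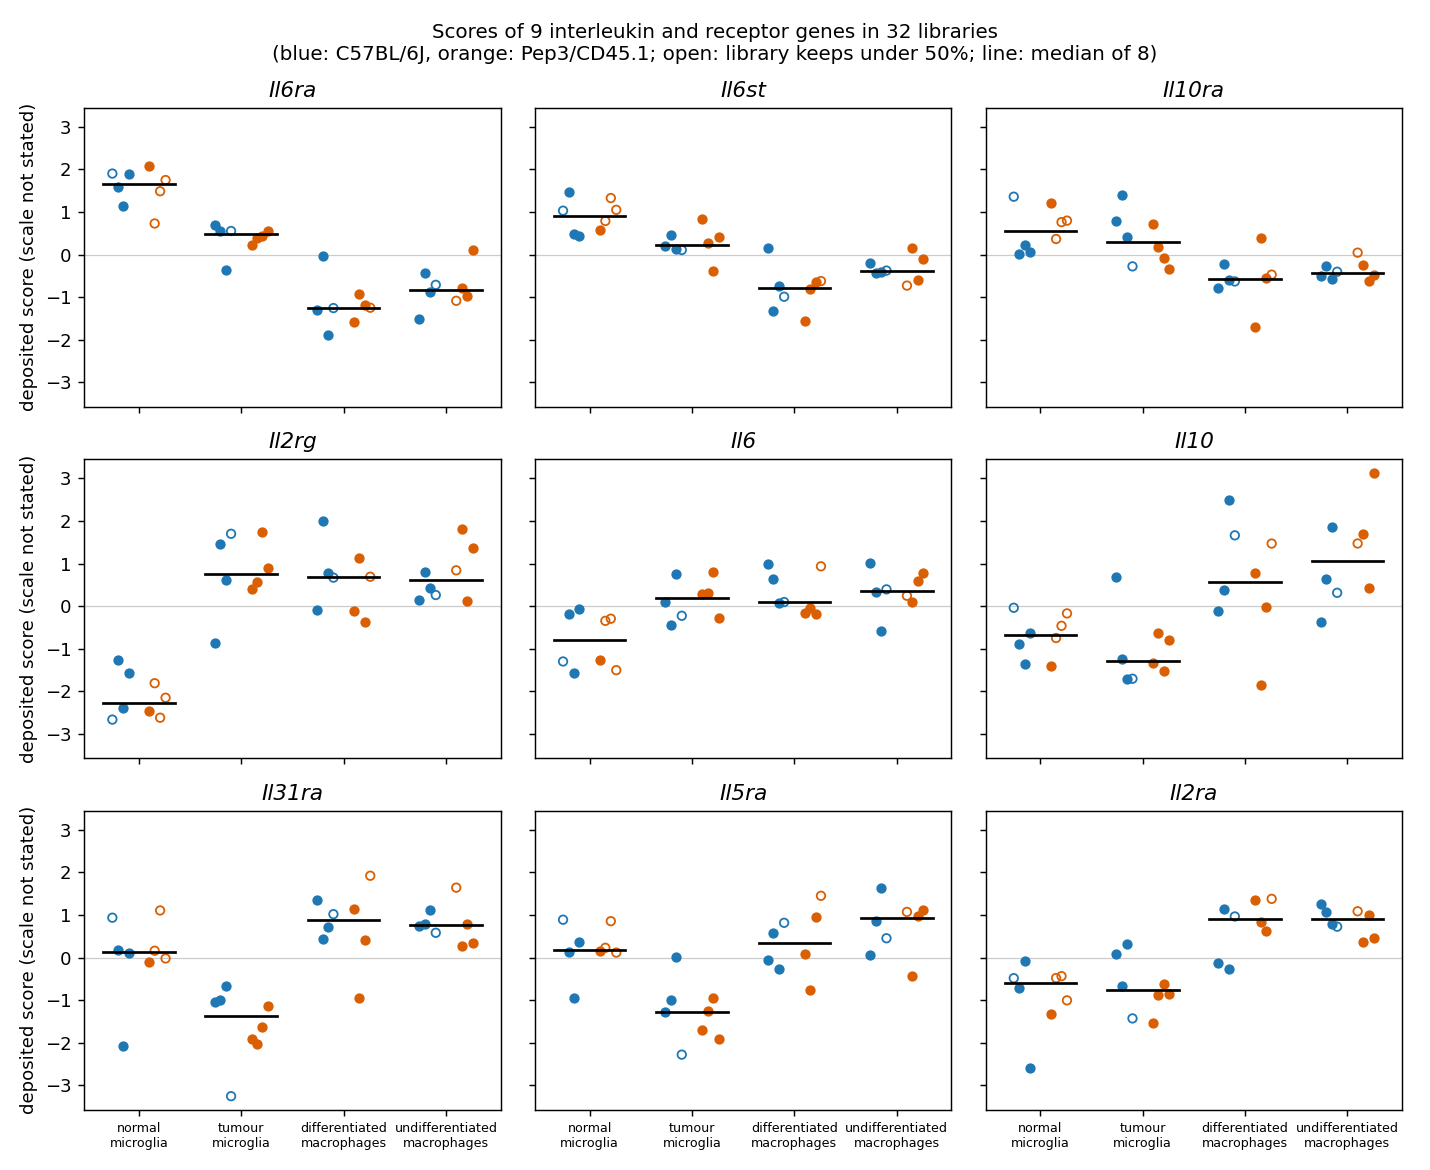
Deposited score (vertical axis, scale not stated) of 9 genes in the 4 populations. Each point is a library, blue for C57BL/6J and orange for Pep3/CD45.1, open where the library kept under 50% of its variation, and the line is the median of 8. Il2rg was low in all 8 normal microglia libraries, Il6ra stepped down from normal microglia to macrophages, and Il31ra and Il5ra were low in tumour microglia.

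The signalling list of partner chains, JAK, STAT and SOCS genes, chosen with earlier results of these data known, had 36 of 38 genes measured. Tumour microglia had 7 higher and 2 lower than normal microglia, where 4.66% and 12% of all genes were. Among the higher were Stat2 (1.74 ± 0.33), a factor of interferon signalling, the feedback inhibitors Socs3 (2.16 ± 0.35) and Socs1 (1.47 ± 0.51), Csf2ra (1.28), Lifr (1.31) and Cntf (1.41). Lower were Stat5b (-1.32) and Osmr (-1.21), the partner of Il31ra. The list's median difference was 0.28, against -0.25 over all genes.

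In differentiated macrophages against tumour microglia, 20 of the 37 genes were called higher, 2 lower and 15 neither, and the 20 became 12 without tumour microglia 27. Of all genes 37% were called higher, 6.35% lower and 43.4% in either direction, so high calls were common throughout the table. The median difference was 1.21 for the members and 0.65 for all genes. No member's libraries were free of overlap, against 8.4% of all genes. In undifferentiated macrophages against the same tumour microglia, 19 were higher, 1 lower and 17 neither, where 36.7% of all genes were higher, 5.19% lower and 41.9% in either direction. The medians were 1.23 and 0.71. Il2ra, Il31ra and Il7 were without overlap there, against 8.09% of all genes. The same tumour microglia serve both comparisons, and 18 of the 37 genes were called higher in each. The share of all genes called higher in both was not counted, so the 18 cannot be set against it.

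Il31ra had the widest difference in both comparisons. It scored -0.939, 0.874 and 1.92 in differentiated and 0.266, 0.773 and 1.64 in undifferentiated macrophages (2.58 ± 0.46 and 2.67 ± 0.48, limma adjusted p = 0.000162 and 0.000208). Every undifferentiated library was above every tumour microglia library. Il17rd, a receptor-like chain also known to restrain growth factor signalling, scored -2.08, -1.2 and 0.187 in tumour microglia and -0.204, 1.43 and 1.95 in differentiated macrophages (2.51 ± 0.43, limma adjusted p = 0.000126). It was -0.0599, 0.667 and 2.48 in undifferentiated macrophages (2.24 ± 0.45, limma adjusted p = 0.000567). Il5ra was higher by 1.79 ± 0.40 and 2.42 ± 0.42, and Il3ra, the interleukin 3 chain, by 1.76 ± 0.37 and 2.12 ± 0.39. Il2ra, the high-affinity interleukin 2 chain, was higher by 1.56 ± 0.35 and 1.94 ± 0.37. Il31ra, Il5ra, Il21, Il1rapl1 and Il1rapl2 were called lower in tumour than in normal microglia and higher in both macrophage populations than in tumour microglia. Their differences were 1.90, 1.70 and 1.31 in differentiated and 1.78, 1.86 and 1.84 in undifferentiated macrophages for Il21, Il1rapl1 and Il1rapl2. All 3 comparisons share the tumour microglia libraries. The all-gene medians had the same signs (-0.25, 0.65 and 0.71), and the share of all genes with this pattern was not counted. Without all 9 low-kept libraries no member was called in either macrophage comparison (Il31ra 1.94 and 1.63, 6 residual degrees of freedom). There 0% and 0.0171% of all genes were called. With the covariates for removed directions also dropped, 13 and 16 members were called higher. In that setting 4620 and 4646 of all genes were called higher, and 31% and 30.3% in either direction.

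Among the cytokines, Il10, Il7, Il21 and Il1f9 were higher in both macrophage populations. Il10, the best known macrophage-restraining interleukin, scored -1.7, -1.29 and 0.694 in tumour microglia, -1.86, 0.571 and 2.49 in differentiated macrophages and -0.372, 1.06 and 3.13 in undifferentiated macrophages. The groups overlapped. The differences were 1.61 ± 0.54 (limma adjusted p = 0.0189) and 2.65 ± 0.56 (limma adjusted p = 0.000856). Without differentiated macrophage library 28 the first was 0.78 and not called, and the call was also lost without differentiated libraries 7, 20 or 31, undifferentiated library 8 or tumour microglia 27 (1.41, 1.33, 1.32, 1.57 and 1.44). The second kept its call without any single library. Il7, a lymphocyte survival cytokine, was higher by 1.77 ± 0.38 and 1.46 ± 0.39. Il6 was not called in either (0.02 ± 0.38 and 0.22 ± 0.40, limma adjusted p = 0.976 and 0.699).

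The receptor pair for interleukin 6 went the other way. Il6ra scored -1.88, -1.25 and -0.0269 in differentiated and -1.51, -0.828 and 0.101 in undifferentiated macrophages, with differences from tumour microglia of -1.63 ± 0.34 and -1.28 ± 0.36 (limma adjusted p = 0.000732 and 0.00683). These calls held without any single library. Over the 4 populations the medians ran 1.67, 0.487, -0.828 and -1.25 from normal microglia through tumour microglia to undifferentiated and differentiated macrophages, and the last pair overlapped widely. Il6st scored 0.442, 0.911 and 1.47 in normal microglia, -0.375, 0.235 and 0.837 in tumour microglia, -1.55, -0.775 and 0.146 in differentiated and -0.726, -0.396 and 0.167 in undifferentiated macrophages. Against tumour microglia it was -1.15 ± 0.33 in differentiated (limma adjusted p = 0.00667) and -0.61 ± 0.34 in undifferentiated macrophages (limma adjusted p = 0.158). Without differentiated library 28 the first was -0.78 and not called. Il10ra, the ligand-binding interleukin 10 chain, had -0.83 ± 0.36 and -0.72 ± 0.38 and was called in neither.

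By role, the wider interleukin 10 receptor group had 3 of 6 genes higher in differentiated and 4 of 6 in undifferentiated macrophages. These were Il20ra, Il20rb and Il28ra in both and Il22ra2, a soluble decoy for interleukin 22, in the second only (2.06 ± 0.54). Il10ra and Il10rb, the chains for interleukin 10 itself, were called in neither. The gamma-chain receptors had 1 of 5 higher in each (Il2ra). The interleukin 17 receptors had 2 of 3 (Il17rd and Il17re, 1.61 ± 0.46 and 1.78 ± 0.48 for the latter). The 7 interleukin 1 family rows had 5 and 4 higher. Of all genes 37% and 36.7% were called higher in these comparisons, and none of these role counts was tested against other genes. The genes called higher spanned differences of 1.05 to 2.58 in differentiated and 1.23 to 2.67 in undifferentiated macrophages. The 12 members called in no comparison were Il10ra, Il10rb, Il13ra1, Il15, Il15ra, Il16, Il17ra, Il1rl1, Il21r, Il23r, Il6 and Il7r, with differences from -0.91 to 0.93 in differentiated and -0.72 to 0.81 in undifferentiated macrophages. Differences between populations made up a median of 48.64% of a member's variance over the libraries, against 36.91% for all genes, and 86.37% for Il6ra.

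**Figure D2:**
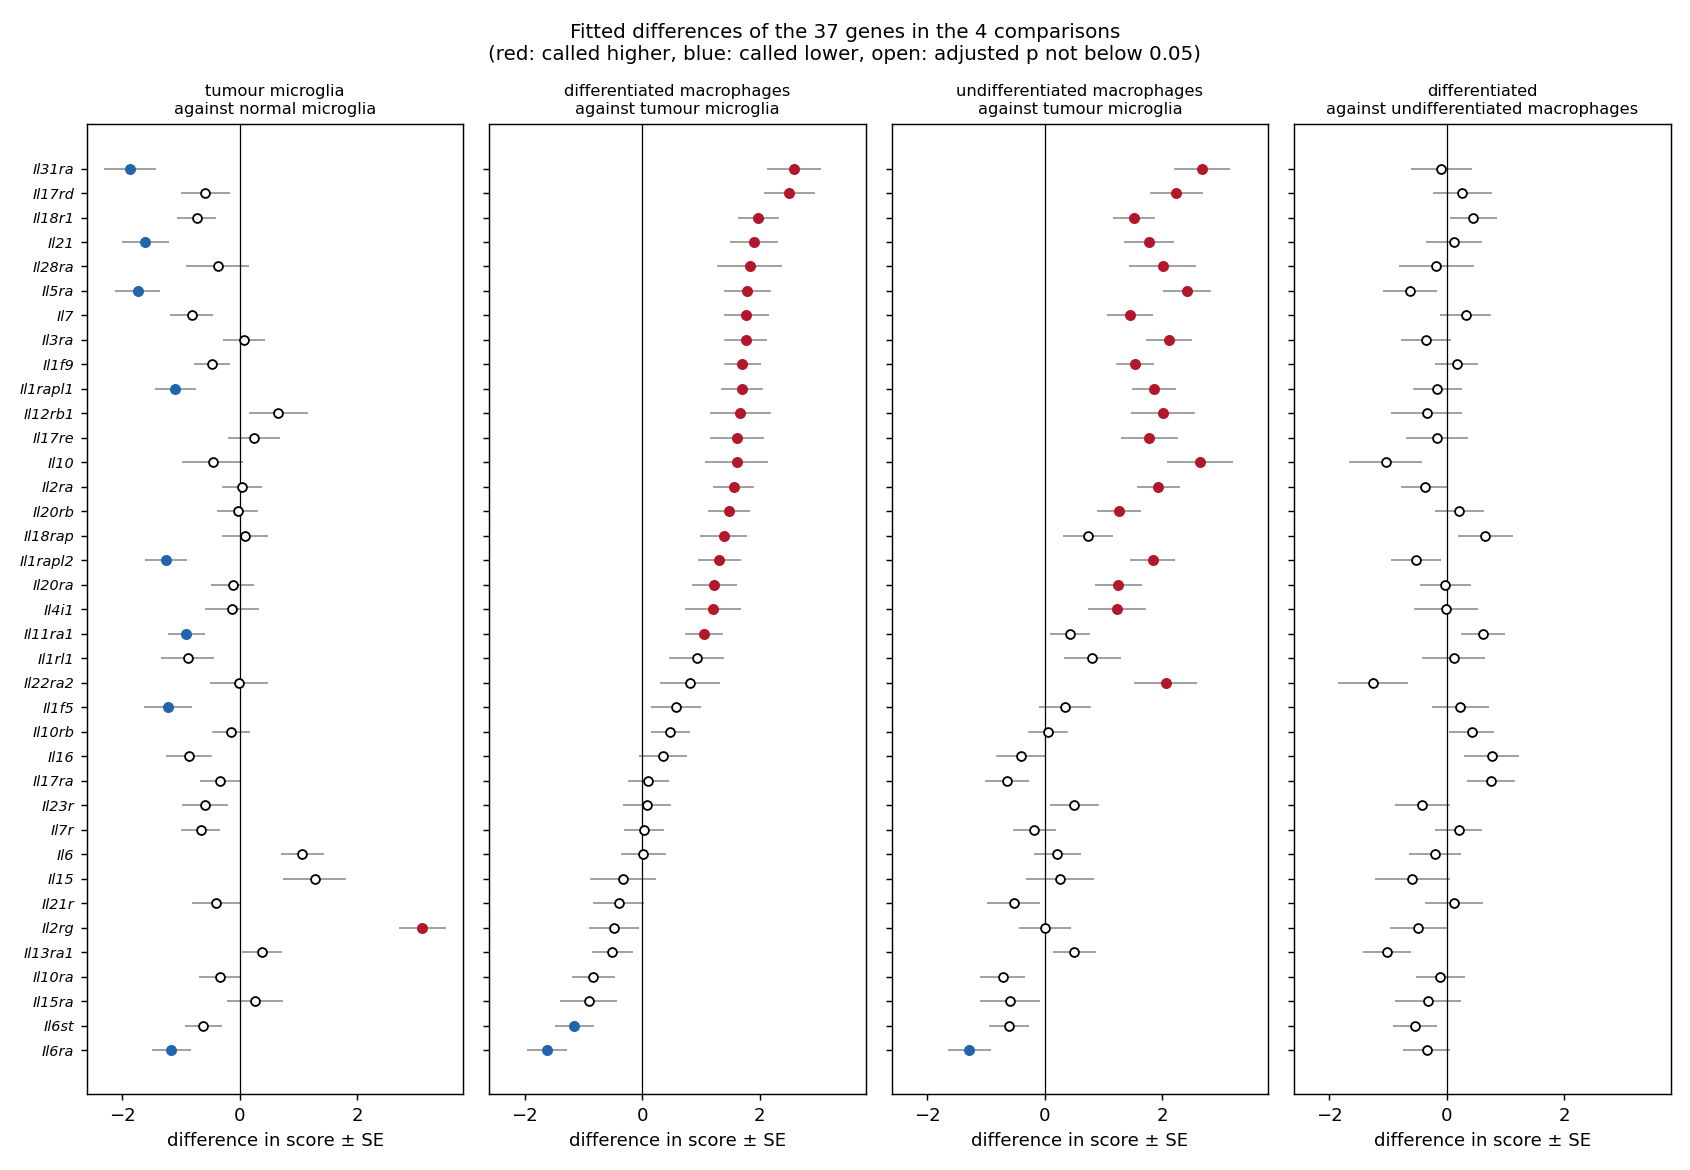
Fitted difference in score with its SE (horizontal axis) for the 37 genes in the 4 comparisons, ordered by the second. Red points were called higher, blue lower and open ones neither. Il2rg is alone on the right of the first panel, Il6ra is lowest in both panels of macrophages against tumour microglia, and no gene was called in the last panel.

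Library medians moved with these results. They ranged from -0.628 to -0.0229 in tumour microglia, from 0.00208 to 0.581 in differentiated and from 0.0576 to 0.464 in undifferentiated macrophages. With the medians subtracted, the differentiated comparison had 10 higher and 6 lower members, where 3486 of all genes were higher and 3385 lower. The undifferentiated comparison had 9 and 8, where 2934 and 2862 of all genes were. Il31ra (1.91 and 1.95), Il17rd (1.84 and 1.52) and Il5ra (1.12 and 1.70) kept both calls. Il10 kept the second (1.93, limma adjusted p = 0.0111) and lost the first (0.94, limma adjusted p = 0.155). Il6ra was further down (-2.29 and -2.0), Il6st was called in both (-1.82 and -1.33), and so were Il10ra (-1.50 and -1.44) and Il15ra (-1.58 and -1.31). Across the 32 libraries, deviations from the population mean correlated with the library median at a median r of 0.49 for the 18 genes higher in both comparisons, 0.147 for the other 19 and 0.219 for all genes, with 0.853 for Il31ra and 0.826 for Il5ra. These r values share libraries and are descriptions.

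**Figure D3:**
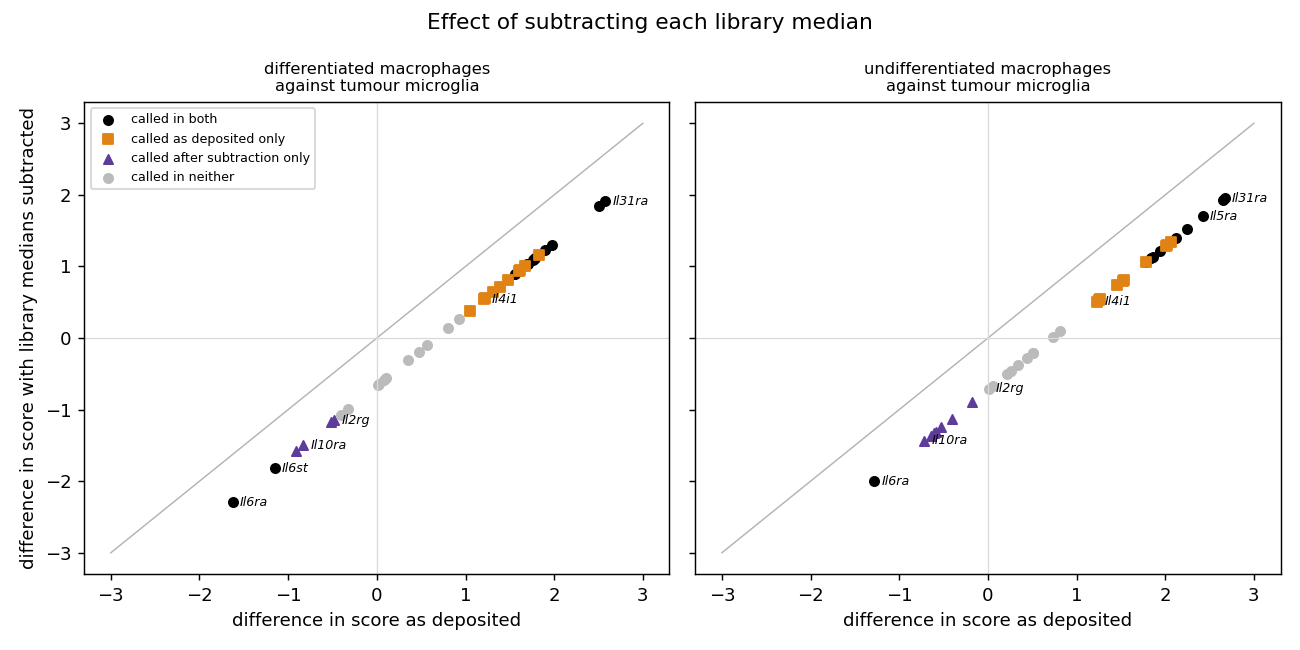
Difference as deposited (horizontal axis) against the difference with each library's median subtracted (vertical axis) for the 37 genes, in score units, with equality as the grey line. Subtraction moves all genes of a comparison by the same amount, and symbols show in which form a gene was called.

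Several markers of other cells were higher in macrophages, where 37% and 36.7% of all genes were. Natural killer and innate lymphoid markers had 4 of 4 measured genes higher in each macrophage population, with summed scores of -0.2995 to 6.622 in differentiated and 0.6554 to 4.91 in undifferentiated macrophages against -8.17 to -1.329 in tumour microglia. T cell markers had 3 of 3 measured and 2 of 3 (0.2131 to 3.902 and -0.7749 to 4.505, against -6.167 to -0.4279). The T cell list held 8 genes, of which Cd3d, Cd3e, Cd3g, Cd4 and Trac have no row in the deposited table. The other lists of this paragraph also lacked genes, such as Ncr1 and Gzma for natural killer cells. Only 1 of 4 mast cell and 1 of 5 neutrophil markers was measured. Dendritic cell markers had 2 and 1 of 4 higher, and B cell markers 2 of 3 in each, with Cd79b lower in undifferentiated macrophages (-1.45), and Gata2 and Cxcr2, the mast cell and neutrophil markers measured, were higher in both. Markers of glioma and neural cells had 3 of 5 higher in each. Scores have no true 0, so absence of a marker cannot be read from them, and the part of these cells in the higher interleukin genes was not tested.

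Within each strain the genes called in both strains' average were also compared. Strain here is that of the recipient, and the graft was of the other strain. Whether the cells of a population came from graft or recipient was not tested, so compared cells may differ in genotype. Within C57BL/6J the macrophages are experiment 3 and tumour microglia experiment 4, and within Pep3/CD45.1 the reverse. Recipient strain, graft strain and experiment therefore cannot be told apart here. In the deposited means, all 20 genes called higher in differentiated macrophages were higher in both strains, with median differences of 1.43 in C57BL/6J and 1.65 in Pep3/CD45.1. All 19 in undifferentiated macrophages were too, with medians of 1.21 and 1.79. Il10 differed by 2.09 and 1.16 in differentiated macrophages, and Il6ra by -1.47 and -1.64. The fitted values, which include the covariates, were less equal, with medians of 0.92 and 2.47 in differentiated and 0.82 and 3.02 in undifferentiated macrophages. Within C57BL/6J alone no member was called in either, where 0.37% and 0.318% of all genes were. Within Pep3/CD45.1 alone 16 were higher in each, where 30.8% and 29.9% of all genes were called in either direction. The difference between strains was itself called for no member in these comparisons.

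In tumour against normal microglia the strains differed for 4 members, where 5.03% of all genes did. Il12rb1, shared by the receptors for interleukins 12 and 23, had a fitted difference of 3.75 within C57BL/6J and -2.45 within Pep3/CD45.1. Its deposited means differed by 2.11 and -0.166. Il1f9 had fitted differences of 1.98 and -2.93 (deposited means 0.582 and -0.998), Il20ra 2.18 and -2.42 (0.862 and -0.697) and Il18r1 1.47 and -2.95 (0.14 and -1.08). The fitted values thus rest on the covariates for the removed directions, and without these covariates 0 members were called for a strain difference. In this comparison strain coincides with experiments 1 and 4 against 2 and 3, so they cannot be told apart.

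**Figure D4:**
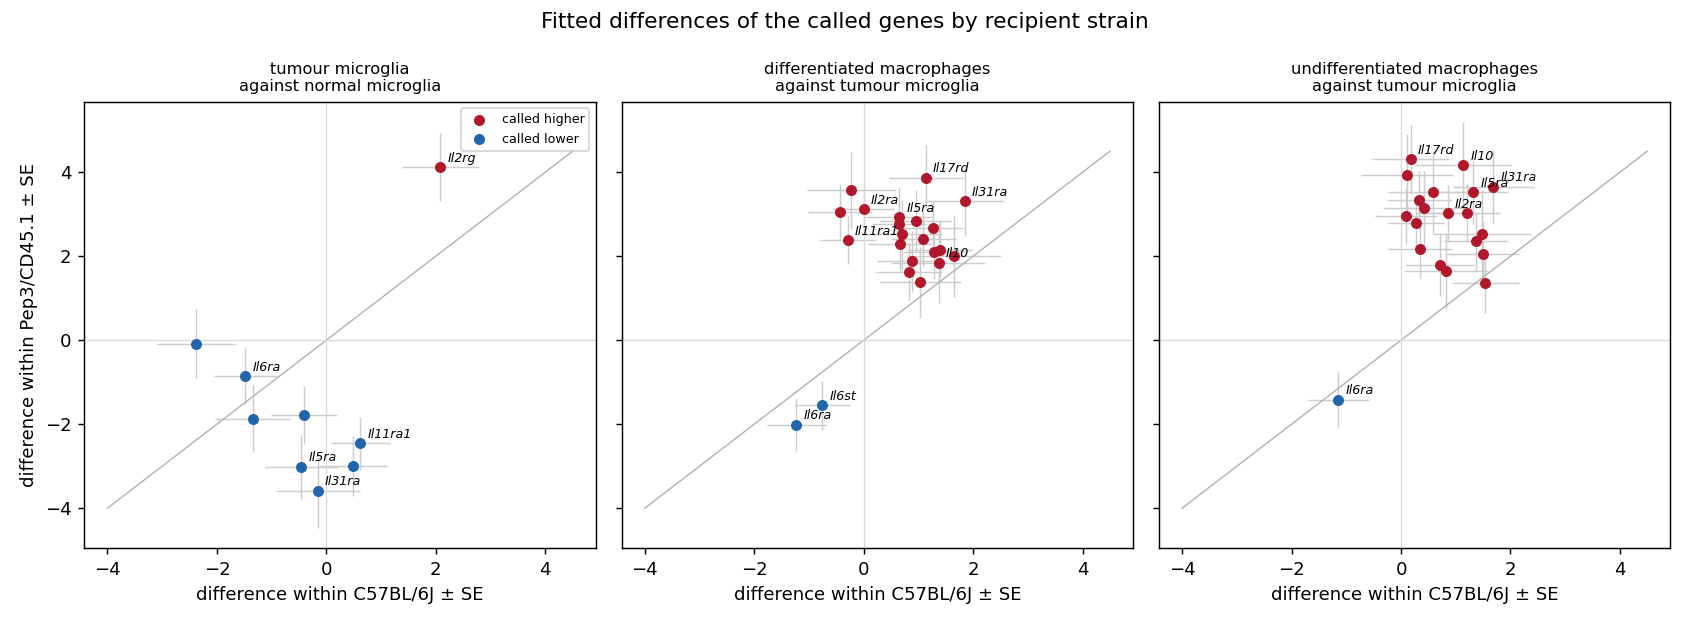
Fitted difference within C57BL/6J (horizontal axis) and within Pep3/CD45.1 (vertical axis), each with its SE in score units, for the genes called in the average of both strains. Grey line: equality. Most red points lie above it in this fit with covariates, and Il2rg and Il6ra keep their sign in both strains.

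The macrophage populations were not told apart by these genes. Of the 37, 0 were called by limma in differentiated against undifferentiated macrophages and 2 had an unadjusted p below 0.05, Il13ra1 (-1.02 ± 0.41) and Il22ra2 (-1.26 ± 0.59), each with limma adjusted p = 1. Over all genes 0% were called higher, 0.0114% lower and in either direction, and 0.00569% were without overlap. Il10 had -1.04 ± 0.62. Only 67.57% of this contrast was left in the table.

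Of the 36 measured genes of the signalling list, differentiated macrophages had 4 higher and 4 lower than tumour microglia, and undifferentiated 3 and 1. Over all genes 37% and 36.7% were called higher, and 6.35% and 5.19% lower. The list's median differences were 0.14 and 0.38, against 0.65 and 0.71 over all genes. Osmr was higher in both (2.41 ± 0.38 and 2.34 ± 0.40), as was Cish, an inhibitor induced by STAT5 (2.27 ± 0.58 and 2.39 ± 0.61). Csf2ra was lower in both (-1.16 and -1.11). Jak3, the kinase of the gamma chain, was lower in differentiated macrophages (-2.25 ± 0.51, limma adjusted p = 0.0012).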

How the data were processed

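RNA of 32 sorted libraries was amplified with the SMART-Seq v4 low-input chemistry, per the labels' protocols. The submitters' processing notes name RSEM 1.3.0, STAR 2.5.0a, FastQC and the build mm9. The authors deposited 1 table of scores for 17586 genes, called normalised counts in its name. These hold negative values, so no count model was used. Each gene has a mean of 0, overall and within strain. 11 sample directions carry no variation: the overall mean, the strain difference and 9 that the labels do not name. No source used here names the step that removed them.

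Scores were fitted with limma 3.58.1 (R 4.3.3) on all genes, with population by strain means, the removed directions as covariates and robust empirical Bayes (15 residual degrees of freedom). Each contrast is the average of both strains, two-sided, with Benjamini-Hochberg adjustment over 17586 genes. No filter or pseudocount was applied. The fit was tested on simulated data with known changes. Over the 4 comparisons it recovered 4% to 8% of changes of 1 score unit. It recovered 44% to 70% of changes of 2 units and 90% to 98% of changes of 3. Far fewer genes were changed there than were called in the macrophage comparisons, and noise was drawn independently for each gene. These rates therefore do not carry over to the macrophage comparisons. Genes named are those called in a comparison, at most the 10 largest per direction, plus a list of well-known interleukins. Members, lists and tests were chosen with earlier results of these data known. Alternatives were median subtraction, no covariates, without low-kept libraries, only the 2 populations, each strain alone, non-robust, a block for sets of 8 consecutive library numbers, and leaving out each library.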

Additional observations from a re-analysis of the deposited data

Results flagged for a closer look

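In 120 groups of 8 libraries (30 genes, 4 populations) 13 had a library far from the others, where chance flags about 1 in 20 groups. Library 17 of normal microglia was low for Il17rd (-2.77), Il31ra (-2.07) and Il5ra (-0.95). Library 9 of normal microglia was high for Il1f5 (2.12) and low for Il21r (-0.62), and library 25 was low for Il11ra1 (-1.18). In tumour microglia, library 3 was high for Il10 (0.694), library 6 high for Il15ra (2.05) and library 19 low for Il6ra (-0.351). In differentiated macrophages, library 15 was low for Il1rapl1 (-0.842). In undifferentiated macrophages, library 13 was low for Il11ra1 (-1.27), library 32 low for Il21r (-2.23) and library 8 high for Il17rd (2.48).

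The difference between recipient strains (C57BL/6J minus Pep3/CD45.1) in tumour against normal microglia was 6.20 for Il12rb1, 4.42 for Il18r1, 4.91 for Il1f9 and 4.60 for Il20ra (limma adjusted p = 0.0286, 0.0232, 0.0106 and 0.0279). With medians subtracted 3 members were called, with 2 of these 4 among them. Without covariates, without the low-kept libraries, and with a block for sets of library numbers, 0 were.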

How the results depend on the processing

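Counts of members called are given as higher and lower for tumour against normal microglia, then differentiated and undifferentiated macrophages against tumour microglia, where the reported counts are 1 and 8, 20 and 2, 19 and 1. With medians subtracted they were 3 and 4, 10 and 6, 9 and 8. Without covariates they were 2 and 7, 20 and 3, 19 and 2. Without the 9 low-kept libraries (6 residual degrees of freedom) all were 0, with 2, 6 and 8 members at an unadjusted p below 0.05. With only the 2 populations (3 degrees of freedom) the counts were 1 and 1, then 0 (2.69%, 0.313% and 0.0512%). Unadjusted, 10, 12 and 12 members passed, and 4642, 5148 and 3083 of all genes. Within C57BL/6J all counts were 0 (0.353%, 0.37% and 0.318%). Unadjusted, 12, 7 and 5 members passed, and 2281, 2561 and 2147 of all genes. Within Pep3/CD45.1 the counts were 2 and 7, 16 and 2, 16 and 0 (16.4%, 30.8% and 29.9%). Non-robust fitting gave the reported counts. Without the low-kept libraries and covariates together, chosen after seeing the data, they were 1 and 0, 13 and 3, 16 and 2 (0.756%, 31% and 30.3%). Leaving out 1 library gave 1 to 3 and 0 to 8, 12 (without tumour microglia 27) to 20 and 1 to 3, 14 to 19 and 1 to 2. The 4 strain differences in microglia became 3, 0, 0 and 0 in the first 4 settings and 0 in the added one, and 0 to 6 with 1 library left out, where the differentiated comparison had 0 to 1. Differentiated against undifferentiated macrophages had 0 in every setting.

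The sign turned within C57BL/6J for Il11ra1 (0.62) and Il1rapl2 (0.49) in tumour against normal microglia, and for Il11ra1 (-0.29), Il12rb1 (-0.23), Il1rapl2 (-0.43) and Il2ra (-0.0020) in differentiated macrophages. It also turned there without the low-kept libraries for Il21 (-0.27) and Il28ra (-0.68), and with only the 2 populations for Il22ra2 in undifferentiated macrophages (-0.24). The cause was not tested. The labels share no library number between groups, but each of the 4 sets of 8 consecutive numbers holds 1 library of every population and strain, and 5 of the 9 low-kept libraries lie in the last. With the set as a replicate block, chosen after seeing the data (12 residual degrees of freedom), the counts were 1 and 7, 19 and 2, 18 and 1, with 0 strain differences. Of all genes 15.6%, 41.2% and 41.5% were called in either direction there. No label says that a set shares a batch.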
